A study of Drosophila melanogaster with 12 samples.

Results

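The genes described here are the cytochrome P450 genes of the larval fat body in Drosophila melanogaster, taken as every gene in the expression table whose symbol starts with Cyp and a number. The rule found 85 of 17139 genes. Of these, 83 were P450 genes, and the other 2, Cyp1 and Cyp40, are cyclophilins that share only the letters of the symbol and are kept out of the counts. The 83 genes had 115 transcripts in the table, 26 of the genes had more than 1, and 34 of the genes lie on chromosome arm 2R.

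Cytochrome P450 enzymes are heme proteins that insert oxygen into small hydrophobic molecules such as hormones, fatty acids, plant toxins and insecticides. Most insect P450s sit in the endoplasmic reticulum and take electrons from cytochrome P450 reductase and cytochrome b5, whereas the mitochondrial ones take them from adrenodoxin reductase and ferredoxins in the matrix. The fat body, the insect organ nearest to liver and adipose tissue, is with the midgut and the Malpighian tubules a main site of P450 expression.

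RNA was sequenced from fat bodies of larvae 96 hours after egg laying, in 6 control libraries (genotype r4-Gal4>WT) and 6 TFAM RNAi libraries, also called the knockdown here, in which the r4-Gal4 driver directs RNAi against TFAM, a protein that packages and helps to transcribe mitochondrial DNA. All 12 libraries thus carried r4-Gal4, which is active mainly in the fat body, so other cells in a dissection would keep TFAM. The labels did not say whether the control and RNAi chromosomes shared a genetic background, and a difference between fly lines and an effect of the knockdown cannot be told apart here. Nor did they say that replicates came from different animals or cultures, so a p-value here is set against the spread of these libraries, part of which may be technical.

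TFAM stood at 78.5 to 101 TPM in the controls and at 22.1 to 26.9 TPM in the knockdown (log2 fold change −1.88, SE 0.077, limma adjusted p = 5.2e-09). TPM is an abundance scaled for transcript length within each library, and keeps no record of depth. Pairs of libraries correlated at 0.905 to 0.980 in control and 0.932 to 0.984 in TFAM RNAi. Among fat body markers, Lsp1beta averaged 27790 and 32600 TPM and Lsp2 4050 and 4741 TPM in control and TFAM RNAi, while Fbp1 reached at most 1.49 TPM in any library. Another, apolpp, spread widely within groups, over 161 to 3113 TPM in control and 150 to 4703 TPM in the knockdown, and was not called. Of 9 tested fat body markers, 2 were called higher in TFAM RNAi (Lsp1alpha, 309 and 9791 TPM, and Fbp2, 142 and 2089 TPM) and 2 lower (Nplp2, 61900 and 42110 TPM, and Lsd-1, 1480 and 800.3 TPM). These were 22.2% in each direction, against 5.75% higher and 13.8% lower of all tested genes. Other tissues were present too: the summed midgut markers ranged over 519 to 5029 TPM in control and 229 to 3450 TPM in the knockdown, and the summed Malpighian tubule markers over 809 to 1232 and 436 to 812 TPM. Uro, the tubule urate oxidase, fell from 799 ± 129 to 360.2 ± 104 TPM (SD, n = 6 each; limma adjusted p = 0.00024), and it was the only one of 5 tested tubule markers called. Pxn, a hemocyte marker, fell from 136 to 5.28 TPM, and the other 4 tested hemocyte markers were not called; summed, the hemocyte markers ranged over 116 to 318 and 44.9 to 85.7 TPM. Muscle markers ranged over 244 to 3069 and 361 to 922 TPM in sum, with 0 of 8 called by limma in either direction. Salivary gland markers ranged over 560 to 3121 and 1080 to 3051 TPM in sum, with 0 of 7 tested called. Among them, Sgs7 stood at 767 TPM in the TFAM RNAi replicate 3 and at most at 15.8 TPM in any other library. In bulk tissue, fewer cells of a type and less RNA per cell cannot be told apart.

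The P450 genes changed in both directions. Of the 58 that averaged 1 TPM or more over the 12 libraries, 16 (27.6%) were called higher in TFAM RNAi and 11 (19.0%) lower, against 5.75% and 13.8% of all 9951 tested genes (19.6% in either direction). The background depended on the fit: 572 of all tested genes were called higher here, 1344 with a replicate block and 1592 without the 4 libraries with the most marker RNA of other tissues, where 15 and 17 P450 genes were called higher. The block groups libraries by replicate number. The control replicate 2 and the TFAM RNAi replicate 4 have no partner in it and add nothing to its fold changes. A gene was called at a Benjamini-Hochberg adjusted p under 0.05 in limma, fitted on log2(TPM + 1) across all tested genes, and the log2 fold changes below are on that scale, where changes of low genes come out too small. For 20 of the 58 (34.5%) the groups did not overlap, against a background of 13.3%. The median log2 fold change of the 58 was 0.03, beside 0.01 for all tested genes. The other 25 P450 genes averaged under 1 TPM and were not tested.

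**Figure D1:**
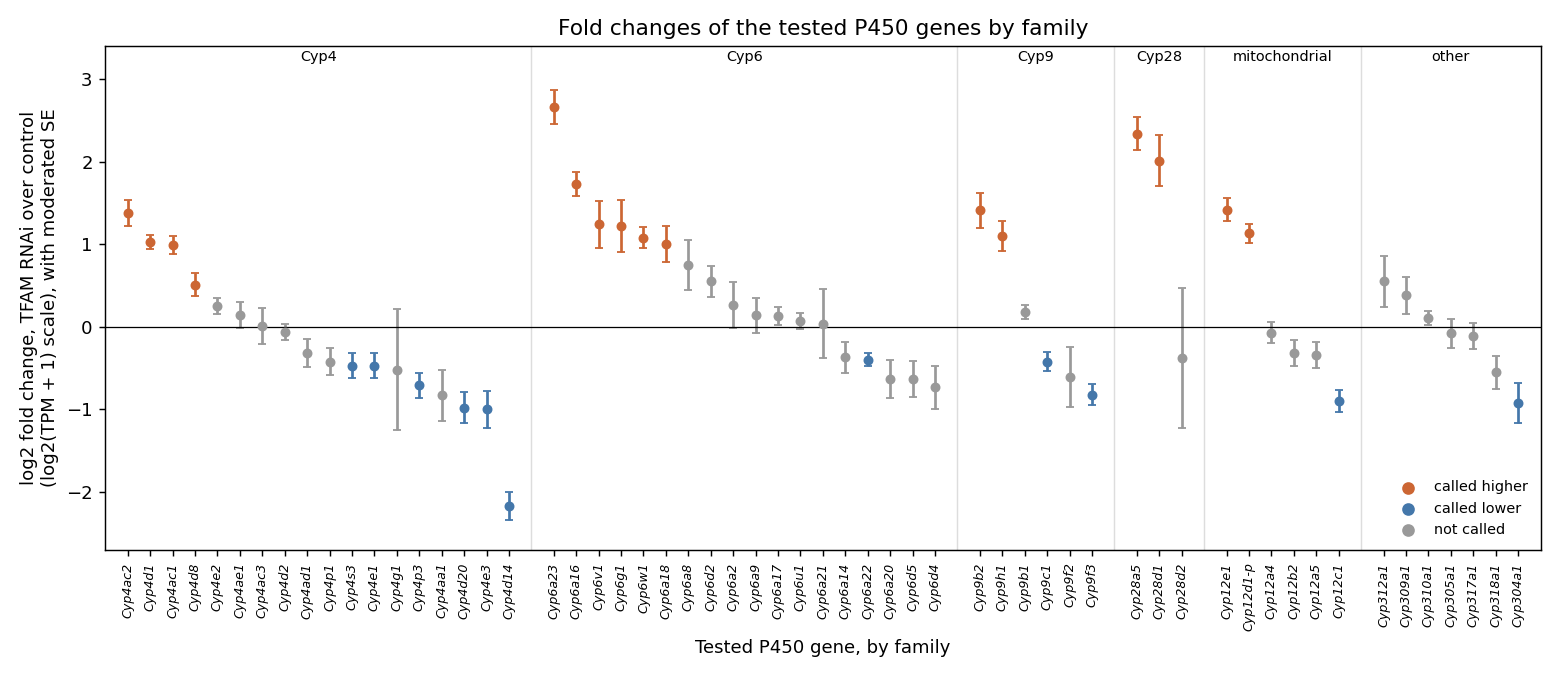
Log2 fold change (TFAM RNAi over control, log2(TPM + 1) scale) of each of the 58 tested P450 genes, with the moderated standard error as bars, grouped by family and colored by call. Called genes run from Cyp4d14 at −2.17 to Cyp6a23 at 2.66, and the Cyp4, Cyp6, Cyp9 and mitochondrial families each hold genes called in both directions.

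The summed P450 level was 1426 ± 122 TPM in control (range 1349 to 1664) and 1712 ± 109.8 TPM in the knockdown (range 1606 to 1860; SD, n = 6 each). The ranges overlapped through the control replicate 3, the highest control. Most of this RNA came from a few genes: in control, 8 genes held 62.3% of the P450 TPM, led by Cyp4d1 with 11.4%, Cyp4d14 with 10.8% and Cyp4s3 with 9.18%. In TFAM RNAi the 8 leading genes held 62.9%, but their order differed. Cyp4d1 alone took 19.5% and Cyp4ac1 10.9%, Cyp9b2 (5.46%) and Cyp28a5 (5.09%) had joined the 8, and Cyp4d14 and Cyp12c1 had left them. At the other end, 27 genes averaged under 1 TPM in control and 29 in TFAM RNAi.

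**Figure D2:**
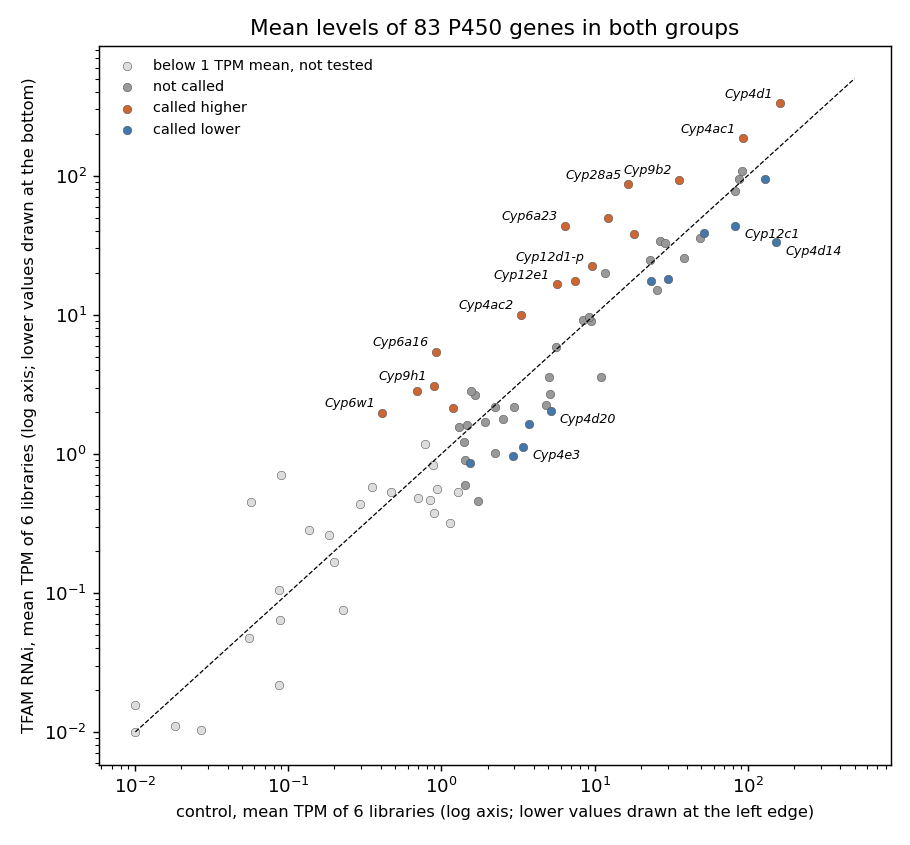
Mean TPM of each of the 83 P450 genes in control (x axis) and TFAM RNAi (y axis), both on log axes, colored by call, with the dashed line marking equal levels. Cyp4d1 and Cyp4ac1 lie at the top right above the line, and Cyp4d14 (155 against 33.3 TPM) lies farthest below it among the abundant genes.

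Cyp4 enzymes hydroxylate fatty acids at the end of the chain in many animals, and they made up the largest share of the P450 RNA, 753 TPM summed in control and 849 TPM in the knockdown. Of 18 tested Cyp4 genes, 4 (22.2%) were called higher and 6 (33.3%) lower, against 5.75% and 13.8% of all tested genes. Their median log2 fold change was −0.37. The 2 most abundant members in control, Cyp4d1 and Cyp4d14, moved in opposite directions. Cyp4d1 (FBgn0005670) had a lowest, median and highest level of 137, 159.6 and 199.5 TPM in control and 313, 330.5 and 368.5 TPM in the knockdown. Every TFAM RNAi library was thus above every control, and the log2 fold change was 1.03 (SE 0.086, adjusted p = 2.1e-06). Cyp4d14 (FBgn0023541), which lies near Cyp4d1 on the X, had 97.1, 160.2 and 190.2 TPM in control and 27.6, 31.4 and 46.3 TPM in the knockdown. Here all TFAM RNAi libraries were below all controls, with a log2 fold change of −2.17 (SE 0.17, adjusted p = 1.1e-06), the largest fall among the 58 tested genes with a Cyp symbol.

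Cyp4ac1 and Cyp4ac2 rose side by side at different levels. Cyp4ac1 had 78.4, 94.0 and 112 TPM as lowest, median and highest value in control and 139, 195 and 203 TPM in the knockdown (log2 fold change 0.99, SE 0.11, adjusted p = 3.3e-05). Cyp4ac2 had 2.38, 3.19 and 4.60 TPM in control and 7.35, 10.1 and 11.5 TPM in the knockdown (log2 fold change 1.38, SE 0.16, adjusted p = 3.1e-05). Neither gene's groups overlapped. Cyp4ac3, the third gene of the run, averaged 5.59 TPM in control and 5.90 TPM in the knockdown (log2 fold change 0.01, adjusted p = 0.98). The remaining rise in the family was that of Cyp4d8, at a low level of 1.20 ± 0.245 TPM in control and 2.15 ± 0.487 TPM in the knockdown (log2 fold change 0.51, adjusted p = 0.022). That call was lost in 5 of its 22 alternatives, the omission of the TFAM RNAi replicate 4 among them, where over all 22 the adjusted p ranged over 0.0086 to 0.21.

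Among the Cyp4 genes that fell, Cyp4p3 had 22.9, 28.7 and 41.7 TPM in control and 13.8, 18.6 and 23.0 TPM in the knockdown (log2 fold change −0.71, SE 0.15, adjusted p = 0.0037). Its highest TFAM RNAi library just reached its lowest control. Cyp4s3 had 103, 132.6 and 159 TPM in control and 69.4, 90.3 and 130.2 TPM in the knockdown (log2 fold change −0.47, SE 0.15, adjusted p = 0.048), with overlapping groups. That call was lost in 16 of 23 alternatives, among them the omission of any 1 of the TFAM RNAi replicates 3 to 7 or of the control replicates 3, 5, 6 and 7, and the adjusted p ranged over 0.014 to 0.26. Cyp4d20 fell from 5.17 ± 1.56 to 2.05 ± 0.291 TPM without overlap (log2 fold change −0.98, SE 0.19, adjusted p = 0.0023). Cyp4e3, which has been tied to permethrin tolerance in the Malpighian tubules, fell from 3.41 ± 1.46 to 1.12 ± 0.306 TPM, also without overlap, a ratio of means of 0.329 (adjusted p = 0.0047). Cyp4e1 fell from 1.54 to 0.865 TPM (log2 fold change −0.47, limma adjusted p = 0.049), a call lost in 15 of 22 alternatives (adjusted p from 0.011 to 0.16). Those included the omission of any 1 of the 6 controls or of the TFAM RNAi replicates 4, 5, 6 and 8. The tubule marker Uro fell in the same libraries, as given above, while the other 4 tested tubule markers were not called. The part of tubule RNA in these falls was not tested.

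Of the 8 tested Cyp4 genes not called, Cyp4e2 was the most abundant, with 76.0, 90.3 and 107.7 TPM in control and 92.6, 111 and 116 TPM in the knockdown (log2 fold change 0.25, SE 0.095, adjusted p = 0.091). The groups overlapped. Cyp4e2 was called higher in 4 of 23 alternatives, among them the omission of the TFAM RNAi replicate 3 or of the control replicate 8 (adjusted p = 0.04 and 0.039; all alternatives 0.0072 to 0.25). Cyp4p1 averaged 48.9 TPM in control and 35.6 TPM in the knockdown (log2 fold change −0.42, adjusted p = 0.097), and it was called lower without the control replicate 8 (adjusted p = 0.028; all alternatives 0.028 to 0.31). It was also called lower without the 4 libraries with the most marker RNA of other tissues. Cyp4g1, the oenocyte decarbonylase that makes cuticular hydrocarbons, ranged from 0.188 to 15.9 TPM in control and from 0.108 to 5.54 TPM in the knockdown (log2 fold change −0.52, SE 0.73, adjusted p = 0.69). Its control mean was 4.86 TPM with replicate 2 and 2.65 TPM without it. Replicate 2 was also the control with the most trachea and epidermis marker RNA, 165 TPM against a group low of 13.3 TPM. Its summed oenocyte markers were the highest of any library too, 6.62 TPM against 0.88 to 2.18 TPM in the other controls. Each of the 6 oenocyte markers averaged below 1 TPM over the 12 libraries, and the part of such cells in the Cyp4g1 level was not tested.

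**Figure D3:**
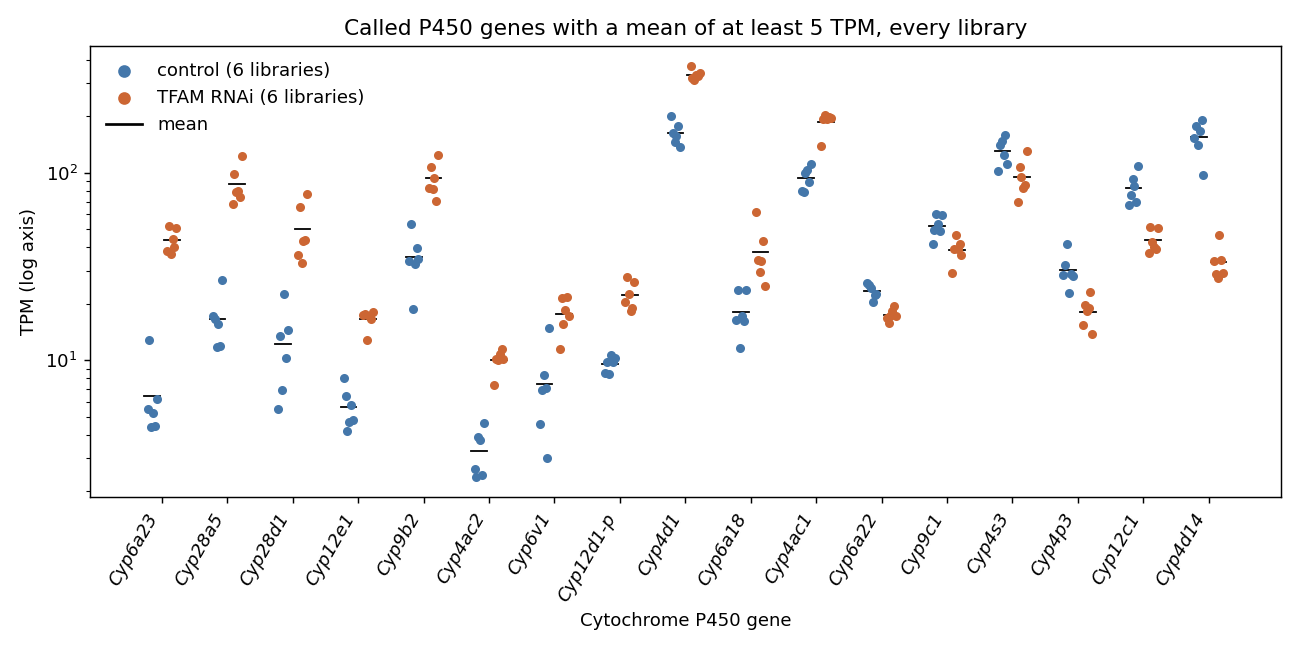
TPM (log axis) of the 17 called P450 genes averaging 5 TPM or more, in each of 6 control and 6 TFAM RNAi libraries, with black bars for group means, ordered by fold change from the largest rise to the largest fall. The groups are separate for most of these genes, and the points of Cyp6v1, Cyp9c1, Cyp4s3 and Cyp4p3 overlap.

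The Cyp6 family holds many of the enzymes that metabolize insecticides and plant compounds. Of its 18 tested genes, 6 (33.3%) were called higher, against 5.75% of all tested genes, and 1 (5.56%) lower, against 13.8%. The median log2 fold change was 0.20, and the summed level was 168 TPM in control and 233 TPM in the knockdown. Cyp6a23 (FBgn0033978) showed the largest rise among the 58 tested genes with a Cyp symbol. Its lowest, median and highest levels were 4.38, 5.37 and 12.8 TPM in control and 36.8, 42.2 and 52.3 TPM in the knockdown. The groups lay far apart, at a log2 fold change of 2.66 (SE 0.21, adjusted p = 1.3e-06), and 2.80 without the library richest in midgut markers in each group. Cyp6a17, its neighbour, which acts in temperature preference, averaged 8.35 TPM in control and 9.21 TPM in the knockdown (log2 fold change 0.13, adjusted p = 0.52). These neighbours are close paralogs, and how far the authors' quantification could share reads between them was not given in the sources used here.

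Cyp6a18 had 11.6, 16.8 and 23.8 TPM in control and 24.8, 33.9 and 61.8 TPM in the knockdown, without overlap (log2 fold change 1.00, SE 0.22, adjusted p = 0.0056). Cyp6v1 had 3.01, 7.03 and 14.9 TPM in control and 11.5, 17.8 and 21.6 TPM in the knockdown, with overlap (log2 fold change 1.24, SE 0.28, adjusted p = 0.0071). Cyp6a22 was the 1 Cyp6 gene called lower, by a small margin: it had 20.4, 23.4 and 26.0 TPM in control and 15.7, 17.3 and 19.4 TPM in the knockdown. Its groups did not overlap, and the log2 fold change was −0.40 (SE 0.079, adjusted p = 0.0025).

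The other Cyp6 genes that rose were low in control. Cyp6a16 went from 0.920 ± 0.211 to 5.44 ± 1.32 TPM (log2 fold change 1.73, limma adjusted p = 3.7e-06), with no overlap. Cyp6w1, which confers DDT resistance when overexpressed, went from 0.412 ± 0.168 to 1.98 ± 0.272 TPM (log2 fold change 1.08, limma adjusted p = 5.2e-05). With a pseudocount of 0.1 TPM the same log2 difference was 2.08. Cyp6g1, whose overexpression gives resistance to DDT and neonicotinoids and which differs widely between fly strains, averaged 0.688 ± 0.925 TPM in control and 2.83 ± 1.66 TPM in the knockdown (log2 fold change 1.22, adjusted p = 0.015). The groups overlapped. Its highest control, replicate 3, had 2.54 TPM, and without it the control mean was 0.318 TPM. The call was lost in 3 of 22 alternatives (adjusted p from 0.00068 to 0.097), and the log2 fold change was 2.31 with a pseudocount of 0.1 TPM.

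The 11 tested Cyp6 genes not called included the most abundant one in control, Cyp6d5, at 38.7 ± 8.02 TPM in control and 25.6 ± 9.83 TPM in the knockdown (log2 fold change −0.63, adjusted p = 0.067). It was called lower without the TFAM RNAi replicate 4 (adjusted p = 0.011; all alternatives 0.011 to 0.19). The same call came with a replicate block and without the 4 libraries with the most marker RNA of other tissues. It also came without the library richest in midgut markers in each group. None of these fits drew on the TFAM RNAi replicate 4 for the fold change. Cyp6a2, a DDT-resistance gene, averaged 23.2 ± 13.1 and 25.0 ± 2.79 TPM (log2 fold change 0.26, limma adjusted p = 0.60). Cyp6a8 averaged 11.8 ± 4.73 and 20.0 ± 7.16 TPM (log2 fold change 0.75, limma adjusted p = 0.11). The last 2 had control libraries spread over several-fold ranges, from 11.1 to 45.3 TPM for Cyp6a2 and from 4.59 to 18.3 TPM for Cyp6a8.

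All 6 Cyp9 genes passed the filter, and 2 (33.3%) were called higher and 2 (33.3%) lower, against 5.75% and 13.8% of all tested genes. Cyp9b2 had 18.8, 34.3 and 53.3 TPM in control and 70.9, 88.5 and 124 TPM in the knockdown. Its groups did not overlap, and the log2 fold change was 1.41 (SE 0.21, adjusted p = 3e-04). Cyp9h1 rose from 0.891 ± 0.288 to 3.10 ± 0.912 TPM (log2 fold change 1.10, limma adjusted p = 0.00069; 1.68 with a pseudocount of 0.1 TPM). Cyp9c1 had 41.6, 51.4 and 60.1 TPM in control and 29.2, 39.3 and 46.8 TPM in the knockdown, with overlap (log2 fold change −0.42, SE 0.12, adjusted p = 0.023). That call was lost without the control replicate 5 or the TFAM RNAi replicate 8, and in 4 of 23 alternatives in all (adjusted p from 0.01 to 0.22). Cyp9f3 fell from 3.73 ± 0.674 to 1.65 ± 0.199 TPM without overlap (log2 fold change −0.82, limma adjusted p = 0.00042). Cyp9f2, near Cyp9f3, averaged 25.7 ± 19.3 and 15.0 ± 6.51 TPM (log2 fold change −0.61, limma adjusted p = 0.30), and was called lower only with a replicate block. Cyp9b1, next to Cyp9b2, averaged 28.9 and 33.0 TPM (log2 fold change 0.18, limma adjusted p = 0.18). It was called higher under quantile normalization and without the 4 libraries with the most marker RNA of other tissues.

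The Cyp28 family, whose members have been tied to the metabolism of plant alkaloids, was small, and its summed level was 40.1 TPM in control and 141 TPM in the knockdown. Of 3 tested genes, 2 (66.7%) were called higher, against 5.75% of all tested genes. Cyp28a5 (FBgn0028940) had 11.7, 16.1 and 26.8 TPM in control and 68.2, 79.3 and 123 TPM in the knockdown, so that the lowest TFAM RNAi library was well above the highest control (log2 fold change 2.34, SE 0.20, adjusted p = 2.4e-06). Cyp28d1, which has been tied to nicotine resistance, had 5.47, 11.9 and 22.5 TPM in control and 33.0, 43.5 and 77.3 TPM in the knockdown, again without overlap (log2 fold change 2.01, SE 0.31, adjusted p = 4e-04). Cyp28d2, beside Cyp28d1, averaged 11.1 ± 21.5 TPM in control and 3.59 ± 4.00 TPM in the knockdown (log2 fold change −0.38, SE 0.85, adjusted p = 0.81). The control mean rested on replicate 3, at 54.8 TPM, and was 2.31 TPM without it. Cyp28c1 averaged 0.184 and 0.263 TPM and was not tested.

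The mitochondrial P450 genes with a Cyp symbol, Cyp12, Cyp49a1 and Cyp301a1, are of interest because their products work in the organelle whose genome TFAM packages. They held 188 TPM in control and 165 TPM in the knockdown. P450 genes with other symbols, among them sad and shd, are not in these sums and are given below. Of 6 tested genes with a Cyp symbol, 2 (33.3%) were called higher and 1 (16.7%) lower, against 5.75% and 13.8% of all tested genes. Cyp12c1 (FBgn0036806) had 66.9, 80.3 and 109 TPM in control and 37.4, 41.5 and 51.5 TPM in the knockdown. The groups did not overlap, and the log2 fold change was −0.90 (SE 0.13, adjusted p = 0.00019). Cyp12e1 had 4.21, 5.29 and 8.05 TPM in control and 12.9, 17.2 and 18.1 TPM in the knockdown, again without overlap (log2 fold change 1.42, SE 0.14, adjusted p = 1.1e-05).

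Cyp12d1-p, one of a pair of nearly identical tandem copies that confer DDT resistance when overexpressed, had 8.49, 9.80 and 10.6 TPM in control and 18.3, 21.5 and 27.8 TPM in the knockdown. Its groups did not overlap (log2 fold change 1.13, SE 0.11, adjusted p = 1.2e-05). The other copy, Cyp12d1-d, was listed at 0 in 11 of 12 libraries and at 0.0943 TPM in the TFAM RNAi replicate 4, so the split of reads between the copies is uncertain and the rise belongs to the pair. Cyp12a4, a lufenuron-resistance gene, was with Cyp12c1 the most abundant of the class. It had 66.8, 76.3 and 119.5 TPM in control and 68.1, 74.1 and 91.3 TPM in the knockdown (log2 fold change −0.07, SE 0.13, adjusted p = 0.78), with groups that overlapped almost fully. Among the untested members, Cyp301a1, which acts in cuticle formation, averaged 1.14 ± 1.79 and 0.318 ± 0.274 TPM, with 4.77 TPM in the control replicate 7.

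The other 19 P450 genes were mostly low: 12 averaged under 1 TPM, among them all 6 Cyp313 genes. Of the 7 tested, 0 were called higher and 1 (14.3%) lower, against 5.75% and 13.8% of all tested genes. With 7 genes, these counts cannot be set apart from those shares. At an unadjusted limma p under 0.05 these counts were 0 and 2, and the exact rank-sum test also called 0 higher. Cyp304a1 fell from 2.93 ± 1.55 to 0.963 ± 0.202 TPM, with overlap (log2 fold change −0.92, SE 0.24, adjusted p = 0.014). Cyp310a1, the one abundant gene of this group, had 74.8, 88.8 and 104 TPM in control and 84.7, 94.4 and 103 TPM in the knockdown (log2 fold change 0.11, SE 0.084, adjusted p = 0.44). Its groups overlapped almost fully, and it was called higher only under quantile normalization (0.32, adjusted p = 0.018; all alternatives 0.018 to 0.76). Cyp312a1, at 1.66 and 2.65 TPM, was called higher in 3 of 22 alternatives, 1 of them the omission of the control replicate 2 (adjusted p = 0.047; all alternatives 0.013 to 0.51). Cyp309a1 averaged 27.0 and 33.7 TPM (adjusted p = 0.31). Cyp18a1, the hydroxylase that inactivates ecdysteroids, averaged 1.29 ± 1.15 TPM in control and 0.529 ± 0.0977 TPM in the knockdown and did not reach the filter. Of the cyclophilins that the symbol rule also took in, Cyp1 rose from 1283 ± 87.9 to 1503 ± 114 TPM (log2 fold change 0.23, limma adjusted p = 0.02), a call lost in 5 of 23 alternatives (adjusted p from 0.006 to 0.36), and Cyp40 averaged 17.5 and 19.1 TPM (adjusted p = 0.60).

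P450 genes often lie next to each other as copies, and 48 of the 83 fell into 17 runs in which at most 2 other protein-coding genes stood between P450 genes. A call was present in 11 of these runs, and in 2 of them calls went in both directions. In none of the runs with at least 2 tested genes were all tested genes called the same way. The run of 4 on the X held Cyp4d1 (higher), Cyp4d14 (lower), and Cyp4d2 and Cyp4ae1, which averaged 9.48 and 9.05 TPM, and 1.31 and 1.56 TPM, in control and TFAM RNAi and were not called. The run of 9 on 2R held the highest fold change of the family, that of Cyp6a23, and the fall of Cyp6a22, with the 6 other tested genes not called. Cyp28d1, Cyp9b2 and the Cyp4ac pair each had a neighbour of the same subfamily that was not called. Whether fold changes of neighbours differed from each other was not tested.

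**Figure D4:**
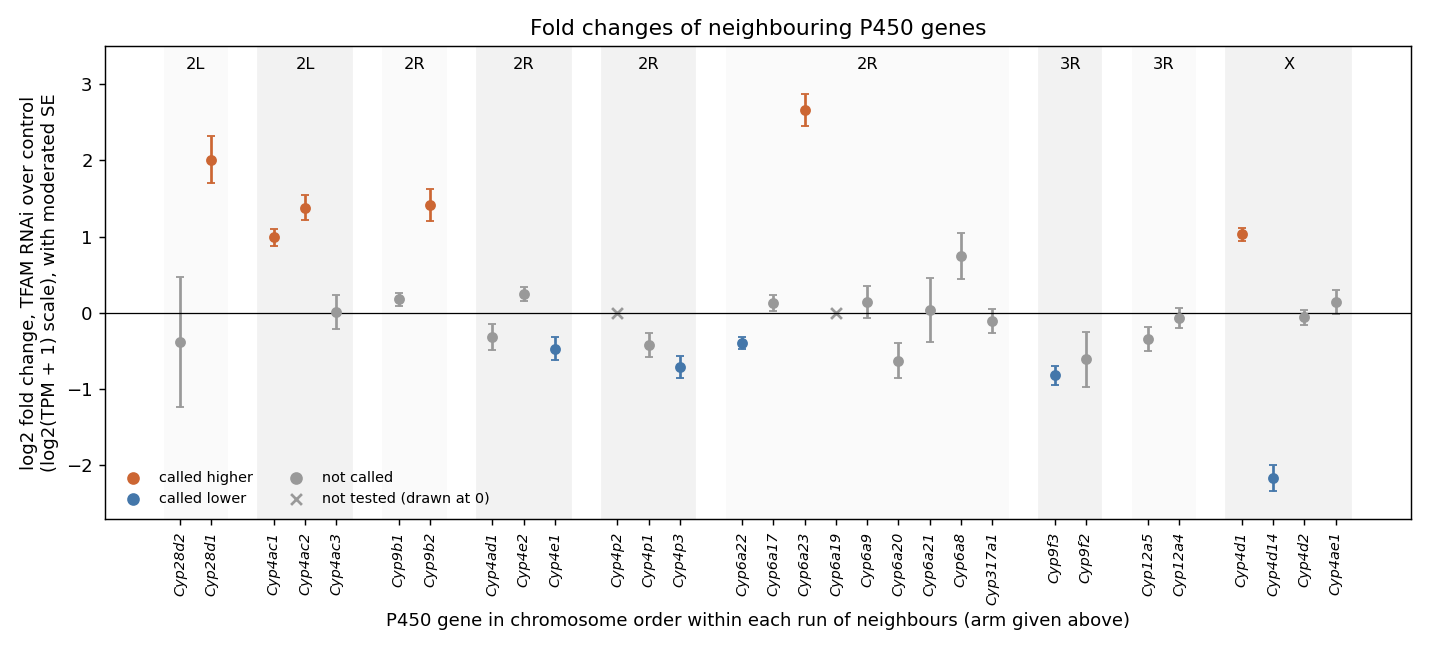
Log2 fold change (TFAM RNAi over control, log2(TPM + 1) scale, with the moderated standard error) of P450 genes in the runs of neighbours with at least 2 tested genes, in chromosome order within each run, with the chromosome arm above. The run on the X holds Cyp4d1 at 1.03 and Cyp4d14 at −2.17, and in the long run on 2R Cyp6a23 stands at 2.66 while the other tested genes lie between −0.63 and 0.75; crosses mark untested genes drawn at 0.

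For 2 genes, chosen after their values were seen, the transcripts took different shares of the gene in the groups; the difference between transcripts was not tested. Cyp12c1 had 2 transcripts. One of them averaged 36.3 TPM in control and 11.4 TPM in the knockdown, so that its share of the gene was 43.5% in control (range 36.4 to 48.6%) and 25.7% in TFAM RNAi (range 20.3 to 31.3%), without overlap. The other averaged 46.8 and 32.3 TPM. In the authors' deposited table the Wald coefficient, which is on a natural log scale, was −1.17 for the first (q = 1.2e-09) and −0.36 for the second (q = 0.03). The rise of Cyp6a16 lay in 1 of its 2 transcripts, which averaged 0.607 TPM in control and 5.19 TPM in the knockdown and whose coefficient in the authors' deposited table was 2.13 (q = 4.8e-11). The other transcript averaged 0.313 and 0.254 TPM (q = 0.9 in the authors' deposited table). Cyp4d1, by contrast, came from the same transcript in both groups, at 98.3% and 98.5% of its TPM. The authors' deposited gene list, made from these same libraries, held 25 P450 genes, of which 24 were among the 27 called here. Cyp4s3, Cyp4d8 and Cyp4e1 were called here only, and Cyp316a1 (0.0567 and 0.452 TPM, under the filter used here) stood only in the authors' deposited list (q = 0.0036).

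Many P450 genes were highest in the libraries with the most midgut RNA. The control replicate 3 and the TFAM RNAi replicate 4 held the most midgut marker RNA of their groups, 5029 and 3450 TPM. Of the 58 tested P450 genes, 21 (36.2%) had their highest control value in replicate 3, against 10.8% of all tested genes, and 18 (31.0%) had their highest TFAM RNAi value in replicate 4, against 5.53%. In Cyp6 these were 10 and 8 of 18 genes. The 10 genes highest in both libraries were Cyp28d2, Cyp304a1, Cyp6a2, Cyp6a21, Cyp6a23, Cyp6a9, Cyp6d4, Cyp6d5, Cyp6g1 and Cyp9f2. The control replicate 3 exceeded the control median 21.0-fold for Cyp28d2, 8.87-fold for Cyp6g1, 4.39-fold for Cyp6a21 and 3.26-fold for Cyp9f2, which stood at 64.5 TPM there against a median of 19.8 TPM.

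**Figure D5:**
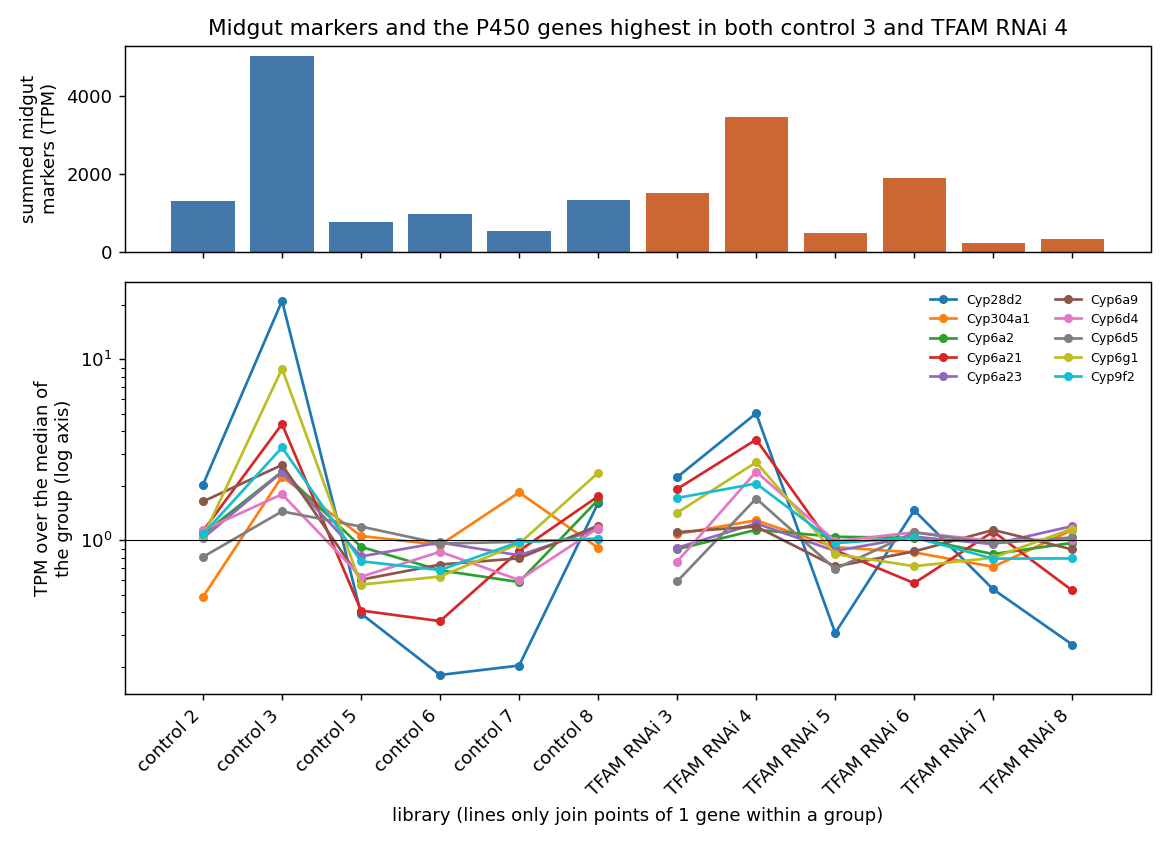
Summed midgut marker TPM in each library (bars, upper panel) and, below, the TPM of the 10 P450 genes highest in both the control replicate 3 and the TFAM RNAi replicate 4, divided by the median of their group (log axis). Cyp28d2 peaks at 21.0 in the control replicate 3, and the genes were picked for being highest in these libraries, so the shared peaks are by selection.

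Without these 2 libraries, in a fit chosen after seeing the data, 15 of 58 P450 genes were called higher and 10 lower, and over all tested genes 433 were called higher and 1046 lower, compared with 572 and 1377 from all libraries. Cyp4d8, Cyp4e1, Cyp4s3 and Cyp9c1 were no longer called (adjusted p = 0.081, 0.16, 0.10 and 0.064). Cyp6d4 and Cyp6d5 were then called lower, with log2 fold changes of −0.74 and −0.70 (adjusted p = 0.021 for both). Cyp28d2 averaged 2.31 TPM in control and 2.10 TPM in the knockdown in that fit (log2 fold change −0.01). The rises of Cyp6a23 and Cyp6g1 were present in it, with log2 fold changes of 2.80 and 1.27 (n = 5 libraries each; limma adjusted p = 0.00068 for Cyp6g1). Of 9 tested midgut markers, betaTry (5.50 and 98.8 TPM) and epsilonTry (0.379 and 55.5 TPM) were called higher in TFAM RNAi. The others were not called, so that 22.2% were higher, against 5.75% of all tested genes. In the libraries kept in this fit, betaTry still stood at 1.73 to 4.92 TPM in control and 14.3 to 134 TPM in TFAM RNAi. There epsilonTry had at most 0.871 TPM in control and at least 1.91 TPM in TFAM RNAi. The fit thus could not test the part of these 2 markers in the P450 rises.

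A list of P450 electron donors and related genes held 7 tested genes, with a median log2 fold change of −0.08. Of these, 1 (14.3%) was called higher and 2 (28.6%) lower, against 5.75% and 13.8% of all tested genes. The 1 called higher, Cyt-b5-r, is a cytochrome b5-related gene, and whether it gives electrons to P450s was not tested. It rose from 412 ± 269 to 882 ± 127 TPM, with overlap (log2 fold change 1.31, limma adjusted p = 0.013). Cyt-b5, the cytochrome b5 that passes electrons to microsomal P450s, fell from 1127 ± 153 to 873 ± 119 TPM (log2 fold change −0.37, limma adjusted p = 0.025). Fdx2, a mitochondrial ferredoxin, fell from 135 ± 7.98 to 112 ± 5.66 TPM without overlap (log2 fold change −0.27, limma adjusted p = 0.0034). The other listed ferredoxin, Fdx1, averaged 20.2 and 19.1 TPM and was not called (limma adjusted p = 0.54). Cpr, the P450 reductase, averaged 126 and 146 TPM (adjusted p = 0.36), and dare, the adrenodoxin reductase, 19.9 and 22.2 TPM (adjusted p = 0.17).

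Of 8 tested regulators of the xenobiotic response, 1 was called lower (12.5%, near the 13.8% of all tested genes). It was maf-S, the partner of the transcription factor cnc (49.9 to 39.1 TPM, log2 fold change −0.33, adjusted p = 0.037). The transcript of cnc averaged 34.4 ± 19.8 and 45.8 ± 17.8 TPM (adjusted p = 0.55), that of its inhibitor Keap1 4.28 and 4.80 TPM (adjusted p = 0.66) and that of the nuclear receptor Hr96 11.9 and 12.1 TPM (adjusted p = 0.94). Of the P450 genes that make ecdysteroids and carry other symbols, 2 were tested. The genes spo, spok and dib averaged under 1 TPM over the 12 libraries and were not tested. Whether this tissue made ecdysteroids was not measured. The gene sad had at least 37.7 TPM in every control and at most 1.74 TPM in the knockdown, a log2 fold change of −5.26 (SE 0.27, adjusted p = 3.2e-08). The gene shd, which makes the active hormone 20-hydroxyecdysone, averaged 9.21 and 13.2 TPM (log2 fold change 0.45, limma adjusted p = 0.062). Of 3 other tested genes of ecdysteroid synthesis, sro was called higher, from 0.945 to 5.49 TPM (log2 fold change 1.67, limma adjusted p = 0.00073).

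Other enzymes of related routes were counted in short lists, beside 5.75% of all tested genes called higher and 13.8% lower. Among 16 tested flavin monooxygenases and carboxylesterases with their companion epoxide hydrolases, 4 (25%) were called higher (alpha-Est7, Jheh1, Jheh2 and Jhe). Another 4 (25%) were called lower (alpha-Est3, alpha-Est8, alpha-Est10 and Jheh3). Jheh3, a juvenile hormone epoxide hydrolase, fell from 285 to 120.2 TPM (log2 fold change −1.24, limma adjusted p = 8.3e-07) while its relatives Jheh1 and Jheh2 rose. Of 4 tested genes of cuticular hydrocarbon synthesis, the desaturase Desat1 rose (1276 to 1906 TPM, log2 fold change 0.59, adjusted p = 0.016), and FASN2 and spidey fell (log2 fold changes −1.18 and −0.71, adjusted p = 0.0053 and 2e-05). With 4 genes, the shares of 25% higher and 50% lower cannot be set apart from those of all tested genes.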

How the data were processed

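RNA-seq libraries of 6 control and 6 TFAM RNAi larval fat bodies were grouped by the genotype in their labels. The authors deposited TPM (abundance per length, scaled to one total in every library) for 34213 transcripts. They also deposited q-values and Wald coefficients with column names as sleuth writes them, and sleuth is named, without a version, in the submitters' processing notes. The deposited coefficients are on a natural log scale (slope 0.999 on the natural-log TPM difference, 1498 transcripts above 50 TPM). Neither quantifier nor build is given in the sources used here, so no coordinates are printed, and TPM keeps no depth, so no counting interval is given.

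Transcripts were named by accession through RefSeq genes of the assembly Release 6 plus ISO1 MT (34056 matched, 99.54%), otherwise by the authors' name, and TPM were summed per gene. Values are means ± SD over 6 libraries. The 9951 genes averaging 1 TPM or more were tested with limma 3.58.1 in R 4.3.3 (lmFit, eBayes with trend) on log2(TPM + 1), with two-sided p-values adjusted by Benjamini-Hochberg across those genes. SE is the moderated standard error.

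The script was tested on simulated data. Members and gene lists were chosen with earlier results of these data known. Called P450 genes averaging 5 TPM or more and the 8 highest in control are given with lowest, median and highest values. Alternatives were pseudocounts of 0.1 and 0.5, no filter or 5 TPM, other scalings, an exact rank-sum test, no trend, a replicate block and libraries left out. A further 2 P450 pseudogene symbols of RefSeq were not analysed here.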

Additional observations from a re-analysis of the deposited data

Results flagged for a closer look

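Of 64 group values checked for 1 library standing apart from the other 5, 10 were marked because the gap to the nearest library was a large part of the group's range. Chance marks about 1 in 20 such groups. The control replicate 3 accounted for 4 of them: its summed P450 level was 1664 TPM, with the others at 1349 to 1445 TPM, its Cyp12a4 level was 119.5 TPM against 66.8 to 84.6 TPM, its Cyp6a23 level 12.8 TPM against 4.38 to 6.21 TPM, and its Cyp6g1 level 2.54 TPM against 0.163 to 0.676 TPM. The TFAM RNAi replicate 4 stood apart for Cyp6g1, at 6.00 TPM against 1.60 to 3.16 TPM. These are the libraries with the most midgut marker RNA in their groups, whose part in the values was not tested.

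The TFAM RNAi replicate 3 was low for the neighbours Cyp4ac1 (139 TPM against 193 to 203 TPM) and Cyp4ac2 (7.35 TPM against 10.1 to 11.5 TPM). The TFAM RNAi replicate 5 was low for Cyp12e1, at 12.9 TPM against 16.5 to 18.1 TPM. The TFAM RNAi replicate 6 was high for Cyp4d14, at 46.3 TPM against 27.6 to 34.3 TPM, and the control replicate 8 was high for Cyp28a5, at 26.8 TPM against 11.7 to 17.2 TPM. In each of these last 5 cases the library stayed on its own group's side of the other group.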

How the results depend on the processing

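The P450 genes called higher numbered 11 with a filter of 5 TPM and 15 to 18 otherwise, those called lower 6 with that filter and 9 to 13 otherwise; the filter itself removes 10 of the 27 called genes from testing. Leaving out 1 library gave 15 to 18 higher and 9 to 11 lower. Of the 27 called genes, 21 were called under every alternative that tested them, and the others were Cyp4s3, Cyp4e1, Cyp4d8, Cyp9c1, Cyp6g1 and Cyp6v1. Over all tested genes, 572 higher and 1377 lower became 961 and 1075 under quantile normalization and 1592 and 1270 without the 4 libraries with the most marker RNA of other tissues (control 2 and 8, TFAM RNAi 3 and 4), where the median log2 fold change was 0.15; the cause was not tested. Leaving out 1 library gave 473 to 816 higher.

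The labels did not say whether libraries with the same replicate number were paired. Deviations of same-numbered libraries correlated at −0.0768 to 0.616, and only number 5 correlated best with its own. Such correlations cannot show whether the libraries were paired. With a replicate block, 15 P450 genes were called higher and 12 lower (all genes: 1344 and 1168), and control 2 and TFAM RNAi 4, without a partner, added nothing. Cyp6v1 was lost only there (adjusted p = 0.052).

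Signs turned only for uncalled genes: Cyp12a4 (0.17 quantile; −0.12 to 0.04 without 1 library; 0.01 without the 2 midgut-rich libraries, an alternative added after seeing the data), Cyp28d2 (−0.74 to 0.34 without 1 library), Cyp305a1 (0.05 block; −0.18 to 0.02 without 1 library; 0.06 without 4 libraries), Cyp317a1 (−0.16 to 0.00 without 1 library), Cyp4ac3 (−0.01 quantile; −0.16 block; −0.10 to 0.13 without 1 library; −0.09 without the midgut-rich) and Cyp6a21 (−0.01 quantile; −0.20 block; −0.19 to 0.34 without 1 library; −0.27 without 4). Of 1354 values of 60 genes, 1253 kept sign and call. The exact rank-sum test used the fold change of the limma fit, so there only the call could change. All alternatives reused these libraries. TPM gives no depth, which limits low genes most: those under 1 TPM were not tested.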
